A study of Homo sapiens with 6 samples.

Results

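Expression of long intergenic non-coding RNA genes with a LINC name was examined in MDA-MB-231 cells, a mesenchymal-like, triple-negative human breast cancer line, after knockdown of TAZ. A member was a gene of lncRNA type whose symbol is LINC followed by digits and which had an estimated read count of 10 or more in all 6 libraries. Of 2121 LINC genes of this type in a table of 46427 genes, 217 met the rule. They were chosen by name, gene type and read counts, and all 217 passed the filter of the test. The rule uses no fold change, but it was set with earlier results of these data known. Each library came from a separate preparation of wild-type MDA-MB-231 cells. The control-siRNA group (3 libraries) and the TAZ-siRNA group (3 libraries) differed in the siRNA, which in the second group targeted WWTR1, the gene for TAZ, as a pool transfected with a lipid reagent. The effect is that of a transient knockdown in 1 cell line. The p-values measure the spread between these preparations. The study was about the role of TAZ in cell migration, and the comparison here asks which LINC genes differed between the groups and whether the genes beside them did too.

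TAZ is a transcriptional coactivator of the Hippo pathway that enters the nucleus when the pathway is off and binds DNA through TEAD factors, often next to AP-1 sites. LINC genes are a catalogue and not a family. Most were named for a position between protein-coding genes, although some overlap one in this annotation, and many are spliced and polyadenylated. They have no sequence or function common to all of them, and they carry a number in place of a name when their role is not established. Some act on genes close to their own locus, and others act elsewhere in the cell, so the position of each gene and the values of its neighbours are given with its own.

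The libraries held 48307548 to 71749634 counts, and the members held 0.0855 to 0.0903% of them. WWTR1 was reduced from 191 ± 1.46 to 16.5 ± 1.21 CPM (counts scaled to a library size of 1e6; SD, n = 3), which was 8.64% of control, and its targets CCN1, CCN2 and ANKRD1 fell by 1.42, 1.02 and 2.93 on the log2 scale. The line's markers VIM, CD44, KRT8, KRT18 and ANXA1 were abundant, ESR1 and PGR had no more than 6 counts in any library and CDH1 no more than 36, whereas ERBB2 was present at 8.31 to 11.9 FPKM (a level scaled for library size and transcript length). PTPRC and CD3E, which mark blood cells, had 0 counts in every library. PECAM1 (0.561 to 1.06 FPKM), CDH5 (0.279 to 0.478 FPKM) and DES (0.778 to 1.69 FPKM) were not absent. DES fell by 0.76 on the log2 scale (adjusted p = 0.00629), and its part in the changes of the LINC genes was not tested. In bulk RNA, fewer cells with a transcript and less transcript per cell cannot be told apart. In both groups replicate 3 stood apart from the other replicates. TAZ-siRNA replicate 3 had a chi-square per degree of freedom of 27.6 and 38.2 against replicates 1 and 2, compared with 10.8 between those 2. Control-siRNA replicate 3 had 20.3 and 18.5 against replicates 1 and 2, compared with 6.38 between those 2. Without TAZ-siRNA replicate 3, 25 LINC genes were called lower and 25 higher. In that fit 45.2% of the members' nearest protein-coding genes were called, against 27.2% with all libraries, so the increase was not particular to LINC genes.

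In the comparison across all 16966 genes tested, 39 of the 217 LINC genes (18.0%) had an adjusted p under 0.05, against 22.1% of all genes. Of these, 20 LINC genes (9.22%) were lower after TAZ-siRNA, against 10.2% of all genes, and 19 (8.76%) were higher, against 11.9% of all genes. The called share was below that of all genes, and the called LINC genes were divided almost evenly between the directions. It was above that of other lncRNA genes under the same count rule, of which 9.89% were called, 6.64% lower and 3.25% higher. Among protein-coding genes under that rule 26.4% were called. The counts rested on all libraries. They were 10 lower and 11 higher without control-siRNA replicate 1, 9 and 9 without replicate 2 and 8 and 10 without replicate 3. Without TAZ-siRNA replicates 1 and 2 they were 6 and 9, and 13 and 13. Of the members' nearest protein-coding genes, 27.2% were called with all libraries. That share was 16.6, 12.9 and 16.6% without control-siRNA replicates 1, 2 and 3, and 14.3 and 23.5% without TAZ-siRNA replicates 1 and 2. Irrespective of the call, 128 LINC genes (59.0%) had a log2 fold change under 0, against 50.8% of all genes tested. The median log2 fold change was -0.08 (lower and upper quartile -0.33 and 0.24), against -0.01 over all genes. The other lncRNA genes under the same count rule had the same lean, with 58.8% of 1355 below 0 and a median of -0.08, whereas 49.1% of 12972 protein-coding genes were below 0, with a median of 0.00435. The lean was thus shared by lncRNA genes of both kinds and was small beside the changes of the called genes. The members' median log2 ratio to the control mean was -0.04, 0.03 and -0.01 in control-siRNA replicates 1, 2 and 3 and -0.11, -0.06 and -0.03 in the TAZ-siRNA replicates, so that TAZ-siRNA replicate 3 lay within the range of the controls. The share of members below the control mean was 60.8, 53.5 and 52.5% in TAZ-siRNA replicates 1, 2 and 3, respectively.

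**Figure D1:**
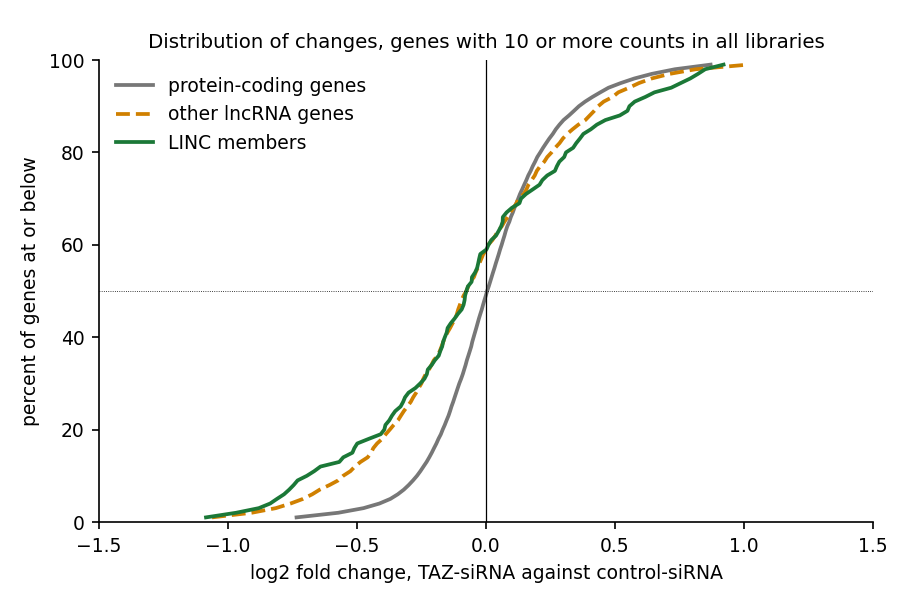
Cumulative distribution of the log2 fold change (TAZ-siRNA against control-siRNA, horizontal axis) for the 217 LINC genes, 1355 other lncRNA genes and 12972 protein-coding genes, each with 10 or more counts in all libraries; the vertical axis is the percentage of genes at or below each value. The lncRNA curves lie to the left of the protein-coding curve below the median and cross 0 near 59.0% (LINC) and 58.8% (other lncRNA), against 49.1% for protein-coding genes.

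LINC genes were read less often than protein-coding genes, with a median of 67.2 counts against 1797, and low counts limit what can be called. Within the range of 30 to 100 mean counts, 13 of 85 LINC genes were called (15.3%), against 14.4% of protein-coding genes and 7.83% of other lncRNA genes. Between 100 and 300 counts the shares were 25.6, 18.6 and 13.5%, and from 300 counts upwards they were 25.5, 28.9 and 25.7%. Of the 42 LINC genes under 30 mean counts, 3 were called (7.14%), against 2.75% of protein-coding genes and 1.78% of other lncRNA genes. In that range the smallest called change was 0.83 on the log2 scale, whereas from 300 counts upwards a change of 0.26 was called, so a moderate change of a rare LINC RNA was not detectable at this depth. Replicates also varied more, with a median coefficient of variation of 12.04% for the members and 4.45% for protein-coding genes with control-siRNA. The 2 groups did not overlap for 92 LINC genes (42.4%), against 39.6% of all genes.

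Levels differed widely among the members. The median of the mean FPKM was 0.696, against 7.84 for protein-coding genes and 0.523 for other lncRNA genes, and 85 members reached 1 FPKM while 15 reached 5. The 6 most abundant, LINC00673, LINC01116, LINC00467, LINC01234, LINC00339 and LINC01184, held 20.6% of the members' summed FPKM. LINC00673, the most abundant, had 11.6, 11.9 and 11.4 FPKM with control-siRNA and 20.6, 21.8 and 17.2 FPKM with TAZ-siRNA. LINC01116, the second, had 15.5, 16.1 and 14.6 FPKM with control-siRNA and 11.7, 11.8 and 12.9 FPKM with TAZ-siRNA. The order of these 2 genes was therefore reversed by the treatment, since LINC01116 was above LINC00673 in all 3 control-siRNA libraries and below it in all 3 TAZ-siRNA libraries. Of the other four, LINC01184 was called lower (log2 fold change -0.26, SE 0.07, adjusted p = 0.0285), while LINC00467 (-0.09, adjusted p = 0.506), LINC01234 (-0.23, adjusted p = 0.0946) and LINC00339 (-0.25, adjusted p = 0.0956) did not pass. LINC01234 was called without TAZ-siRNA replicate 3 (adjusted p = 0.00128), and LINC01184 was not called by limma on FPKM (adjusted p = 0.105 and 0.103 with the pseudocounts 1 and 0.1). The summed FPKM of all 217 genes was 344 to 368 in the control-siRNA group, against 340 to 348 after TAZ-siRNA.

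**Figure D2:**
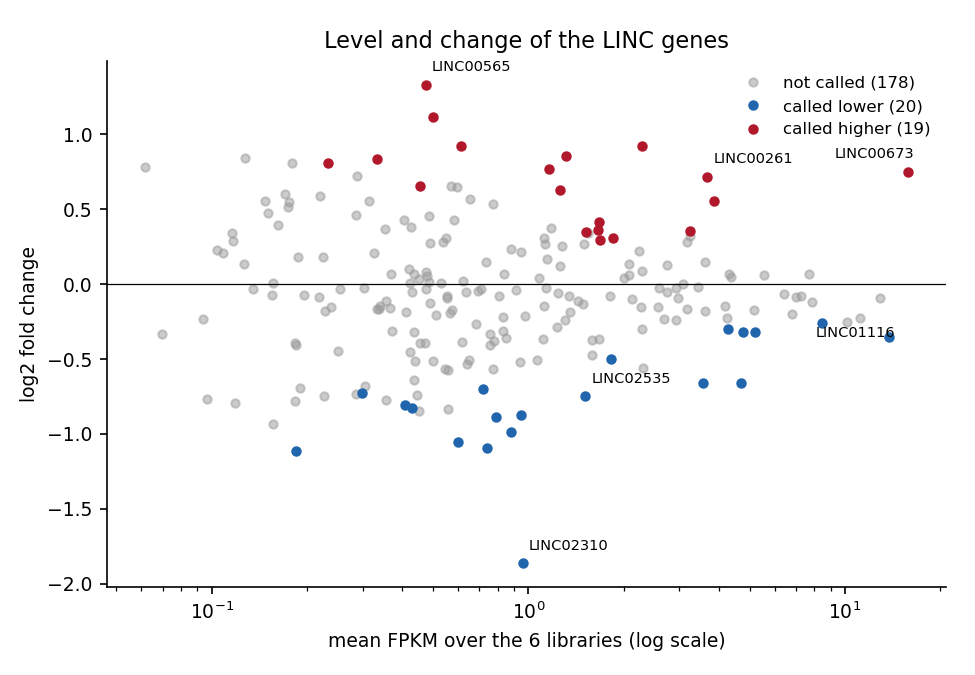
Mean FPKM over the 6 libraries (log scale, horizontal) against the log2 fold change (vertical) for each of the 217 LINC genes, with 20 called lower in blue, 19 called higher in red and 178 not called in grey. LINC02310 (-1.86) and LINC00565 (1.33) lie at the extremes at under 1 FPKM, and LINC00673 (0.75) is both the most abundant gene and a called rise.

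The largest fall was that of LINC02310, a gene on chromosome 14 (51392129 to 51397135, GRCh38, minus strand) with 1 annotated transcript of 571 bases. It was read 68, 47 and 56 times after control-siRNA and 15, 10 and 22 times after TAZ-siRNA. The groups were far apart, with 0.976 ± 0.203 CPM against 0.267 ± 0.11 CPM (SD, n = 3). The log2 fold change was -1.86 (SE 0.32, adjusted p = 0.00284), which is a 3.64-fold decrease, and the gene was called whichever library was left out (highest adjusted p = 0.0192). With 10 counts in its lowest library, it met the count rule exactly. It was followed by LINC02522 (-1.11, SE 0.25, adjusted p = 0.011), LINC02104 (-1.09, SE 0.31, adjusted p = 0.0279) and LINC01366 (-1.05, SE 0.22, adjusted p = 0.00802). LINC01366 is on chromosome 5 (170331393 to 170335100) and had 118, 114 and 122 counts with control-siRNA against 66, 38 and 70 with TAZ-siRNA.

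The remaining 6 of the 10 largest falls were LINC01836 (-0.99), LINC02323 (-0.89), LINC01399 (-0.87), LINC02041 (-0.83), LINC02709 (-0.81) and LINC02535 (-0.75), with adjusted p from 0.00145 to 0.0445. LINC02535, on chromosome 6 (85387219 to 85404802), was the best measured of them. It had 375, 362 and 258 counts with control-siRNA and 221, 162 and 205 with TAZ-siRNA, which corresponds to 5.58 ± 0.255 against 3.33 ± 0.322 CPM. After scaling, the highest TAZ-siRNA value was below the lowest control-siRNA value. Most of the other falls were less stable. LINC02041 was called in none of the 6 fits that left out 1 library, nor by DESeq2 (adjusted p = 0.112) or without a filter on low counts (adjusted p = 0.0597). LINC02323 and LINC01399 were called in 1 of the 6, with adjusted p up to 0.137 for LINC02323. LINC02709 shares its locus with SBF2-AS1, an antisense gene on the opposite strand that was itself lower (-0.43, adjusted p = 0.0176). Whether the counting used strand is not given in the sources used here, so the reads of the overlapping pair cannot be told apart.

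Among more abundant genes, LINC02085 and LINC02476 fell by less but with a smaller error. LINC02085, on chromosome 3 (101940859 to 101997926), had 881, 808 and 641 counts with control-siRNA and 547, 396 and 527 with TAZ-siRNA. This is 13.1 ± 0.128 against 8.32 ± 1.0 CPM, a log2 fold change of -0.66 (SE 0.09, adjusted p = 0.00101). LINC02476 on chromosome 7 had the same fold change (-0.66, SE 0.14, adjusted p = 0.00749). Together with LINC02310, LINC01366 and LINC02535, these were the 5 falls that were called in all 6 fits without a library. The fall of LINC01116 on chromosome 2 (176629581 to 176637574), downstream of the HOXD cluster, was smaller (-0.35, SE 0.08, adjusted p = 0.00997) and was called in 4 of the 6. A stretch of 314 bases of LINC01116 also occurs nearly unchanged in transcripts of other genes, so its value is uncertain to that extent.

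**Figure D3:**
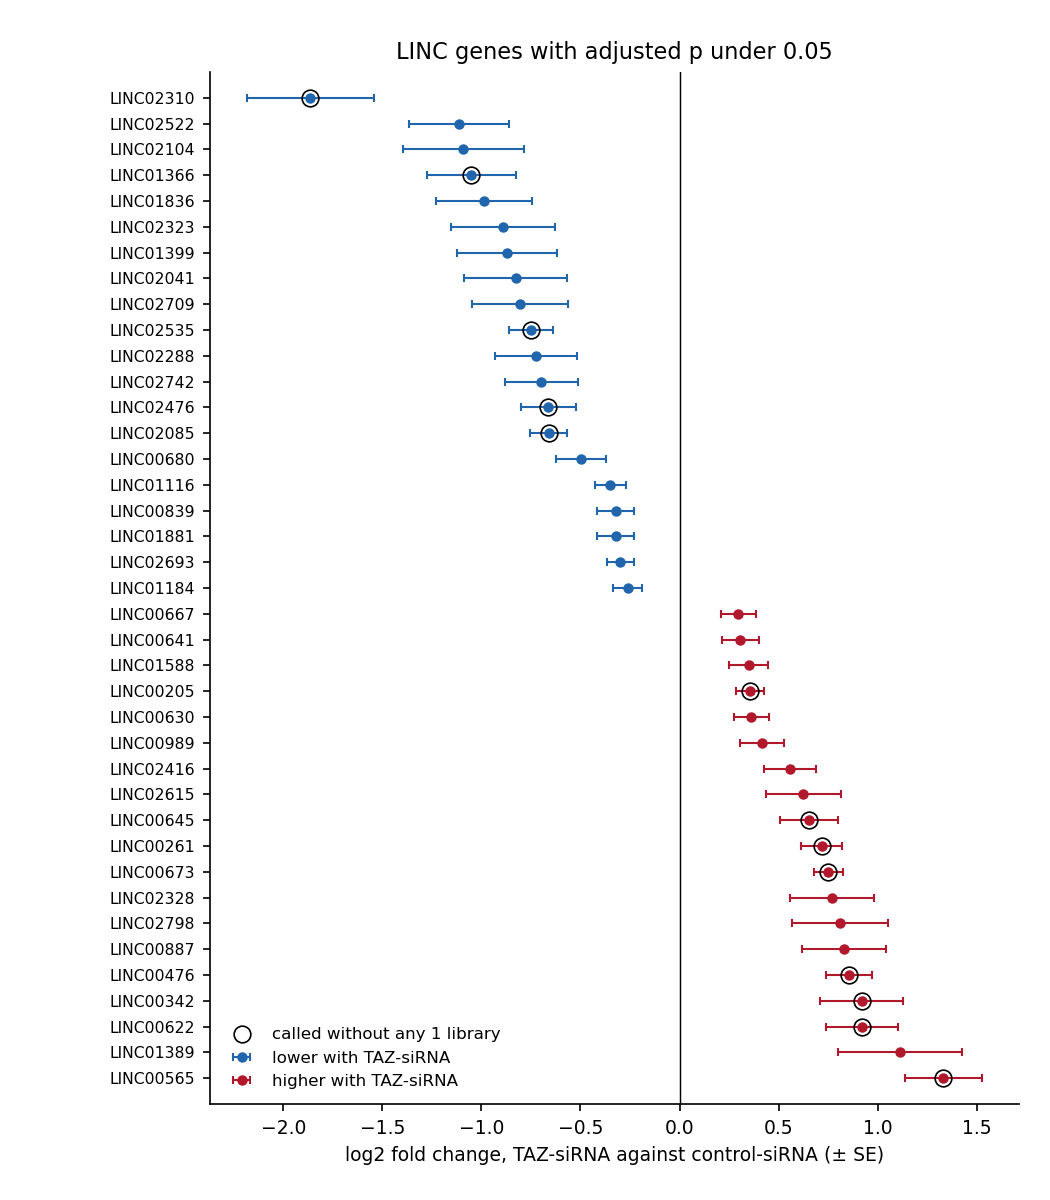
Log2 fold change with its standard error (horizontal axis) for the 39 LINC genes with an adjusted p under 0.05, ordered by value, lower genes in blue and higher genes in red. Open circles mark the 13 genes, 5 lower and 8 higher, that were called in all 6 fits without a library.

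The largest rise was that of LINC00565, on chromosome 13 (113926514 to 113928991, minus strand), which RefSeq now lists under the symbol SWINGN. Its counts were 59, 44 and 31 with control-siRNA and 147, 98 and 92 with TAZ-siRNA, or 0.743 ± 0.127 against 1.88 ± 0.205 CPM. The lowest TAZ-siRNA library was above the highest control-siRNA library. The log2 fold change was 1.33 (SE 0.19, adjusted p = 0.00123), a 2.51-fold increase. LINC01389 on chromosome 1 (1.11, SE 0.31, adjusted p = 0.0287) was the only other member that at least doubled, from counts of 22, 12 and 20 to 51, 35 and 33. It was called in 2 of the 6 fits without a library. LINC01389 overlaps the lncRNA FOXD2-AS1 on the same strand (0.15, adjusted p = 0.534), which had at least 77 counts, so that its reads are uncertain. Of the 217 members, 26 were called with a change of 1.5-fold or more, against 4.42% of all genes tested, and 6 with a change of 2-fold or more, against 1.41%. Both shares of the members were above those of all genes. Of the 1355 other lncRNA genes under the same count rule, 81 and 26 were called with such changes, respectively. At low counts only large changes could be called. The calls of 13 of the 217 members held in all 6 fits without a library, whereas those of 9.71% of all genes did. The 13 were 5 falls, against 4.11% of all genes, and 8 rises, against 5.61%. These 3 shares of the members were below those of all genes.

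LINC00673, on chromosome 17 (72403322 to 72592804), combined a high level with a called rise. It has been studied for its part in the turnover of the phosphatase PTPN11. Its counts were 1978, 1875 and 1401 with control-siRNA and 3708, 2655 and 2489 with TAZ-siRNA, or 29.5 ± 0.649 against 49.8 ± 4.73 CPM. The log2 fold change was 0.75 (SE 0.07), with the smallest adjusted p of all the members (0.000144, and at most 0.00248 without any 1 library). LINC00261, a gene beside FOXA2 that is known from endoderm, rose in like manner. It had 1040, 995 and 676 counts with control-siRNA and 1944, 1352 and 1165 with TAZ-siRNA (log2 fold change 0.72, SE 0.10, adjusted p = 0.00116). Both RNAs were higher in every TAZ-siRNA library than in any control-siRNA library.

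Further rises called in all 6 fits without a library were LINC00622 (0.92, SE 0.18), LINC00342 (0.92, SE 0.21), LINC00476 (0.85, SE 0.12), LINC00645 (0.65, SE 0.15) and LINC00205 (0.35, SE 0.07). LINC00622, on chromosome 1, had 210, 200 and 97 counts with control-siRNA and 430, 221 and 309 with TAZ-siRNA. Control-siRNA replicate 3 was the lowest library, and the scaled groups did not overlap. LINC00887 (0.83, adjusted p = 0.0187), LINC02798 (0.81, adjusted p = 0.0355) and LINC02328 (0.77, adjusted p = 0.0271) completed the 10 largest rises. Transcripts of LINC00342 and LINC02798 share stretches of 870 and 404 bases, respectively, with other genes at 98% identity or more, so their values are uncertain. LINC00476 overlaps ERCC6L2 on the opposite strand, a helicase gene with at least 1996 counts that was not called (0.19, adjusted p = 0.0558). Their reads cannot be told apart without the strand. By limma on log2(FPKM + 0.1) the rise of LINC00476 was smaller (0.52, adjusted p = 0.0174).

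**Figure D4:**
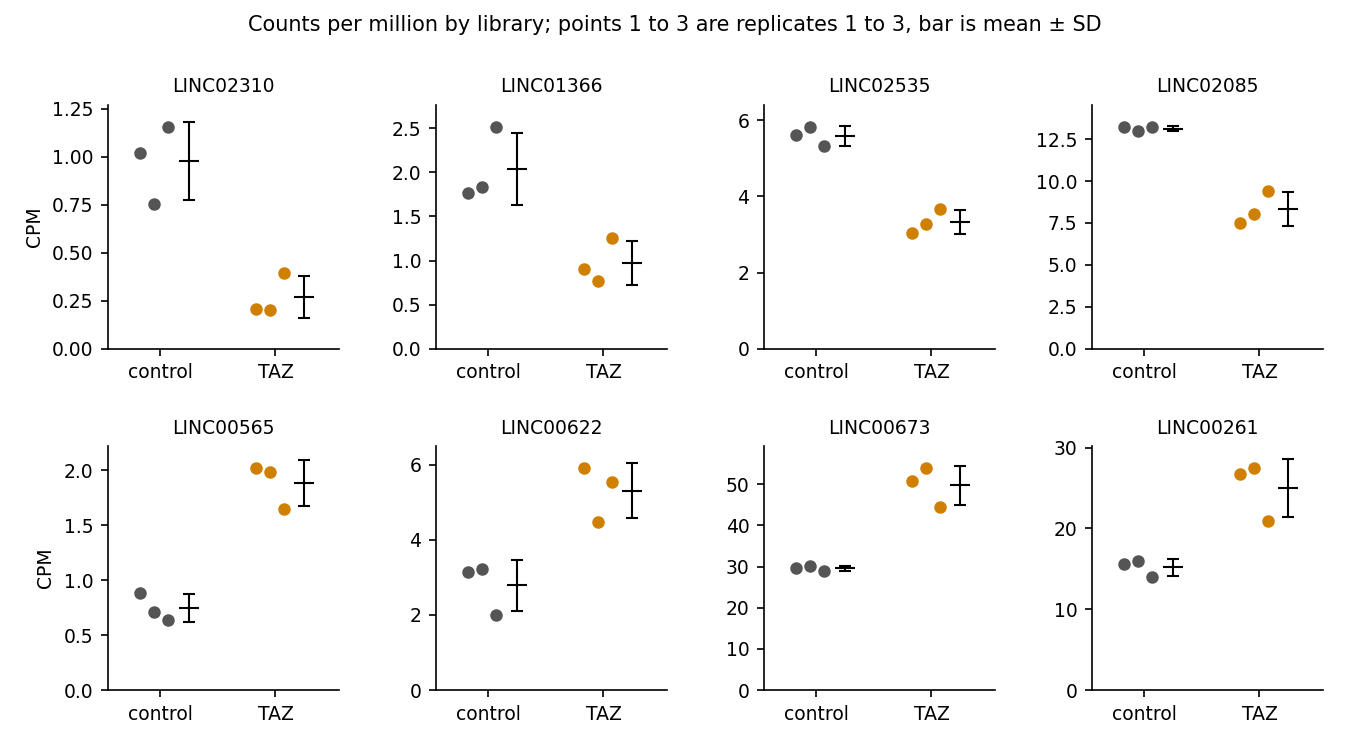
CPM (vertical axis, from 0) of 8 LINC genes in each library, with control-siRNA in grey and TAZ-siRNA in orange, points in the order of replicates 1 to 3, and the mean ± SD beside them. LINC02310, LINC01366, LINC02535 and LINC02085 are lower, and LINC00565, LINC00622, LINC00673 and LINC00261 are higher, in every TAZ-siRNA library than in any control-siRNA library.

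Promoters are shown for 2 falls and 2 rises, namely the largest change in each direction, a fall that also holds a TEAD motif, and the most abundant gene, which were chosen after their values were seen. RefSeq (GRCh38.p14) gave promoters for 154 of the 217 members, from 250 bases before to 50 after the start of transcription. In 138 of these the start lay within 10 bases of the end of the deposited locus. Each is printed 5′ to 3′ on the gene's own strand, and capitals mark the TEAD motif GGAATG.
LINC02310, chr14:51397086-51397385: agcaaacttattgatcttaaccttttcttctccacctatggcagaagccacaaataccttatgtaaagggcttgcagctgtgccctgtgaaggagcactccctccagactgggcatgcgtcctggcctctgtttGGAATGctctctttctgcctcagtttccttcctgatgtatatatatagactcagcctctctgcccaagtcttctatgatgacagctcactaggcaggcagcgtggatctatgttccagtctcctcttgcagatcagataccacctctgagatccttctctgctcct
LINC01836, chr19:782546-782845: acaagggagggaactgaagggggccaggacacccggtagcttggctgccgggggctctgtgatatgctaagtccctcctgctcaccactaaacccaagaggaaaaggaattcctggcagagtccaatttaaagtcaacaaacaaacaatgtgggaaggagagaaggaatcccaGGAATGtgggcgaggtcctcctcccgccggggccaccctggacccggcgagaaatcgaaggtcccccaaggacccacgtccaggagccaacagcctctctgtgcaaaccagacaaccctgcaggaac
LINC00565, chr13:113928942-113929241: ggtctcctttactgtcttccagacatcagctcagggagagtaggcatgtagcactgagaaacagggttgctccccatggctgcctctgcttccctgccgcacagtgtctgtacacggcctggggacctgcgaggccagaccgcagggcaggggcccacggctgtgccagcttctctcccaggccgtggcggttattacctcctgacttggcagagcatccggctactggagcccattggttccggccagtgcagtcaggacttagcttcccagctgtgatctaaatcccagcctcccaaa
LINC00673, chr17:72592755-72593054: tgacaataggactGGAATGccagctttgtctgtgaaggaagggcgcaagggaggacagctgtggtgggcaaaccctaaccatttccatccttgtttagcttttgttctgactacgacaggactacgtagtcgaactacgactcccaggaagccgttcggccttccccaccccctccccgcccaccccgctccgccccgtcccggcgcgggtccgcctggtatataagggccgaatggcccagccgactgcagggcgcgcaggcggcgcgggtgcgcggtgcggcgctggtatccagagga
The motif began 116, 77 and 237 bases before the start of LINC02310, LINC01836 and LINC00673, respectively, and these letters were not in the window of LINC00565. Among the promoters shown, the motif was present both in genes that were lower and in a gene that was higher. The promoter of LINC02104, a larger fall than LINC01836, held no TEAD motif, nor did those of the rises LINC01389 and LINC00622. Since LINC01836 was picked for its motif, the promoters shown cannot tell whether the motif goes with a direction.

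Over all members the TEAD motif GGAATG, read on both strands, was in 19 of 175 promoters (10.9%), against 14.0% of the 35116 promoters in the RefSeq table. It was in 3 of 13 promoters of LINC genes called lower, in 2 of 18 of those called higher and in 14 of 144 of those not called. The AP-1 motif TGANTCA, which does not overlap it in sequence, was in 26 of 175 (14.9%), against 7.71% of all promoters. It was in 3 of 13 promoters of genes called lower, in 0 of 18 of those called higher and in 23 of 144 of those not called. The CRE motif TGACGTCA was in 2 of 175, against 1.85% of all promoters. Some genes have several promoters in the table, and a match of letters is not evidence of binding.

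Neighbours were taken as the nearest protein-coding gene with at least 10 counts in all libraries. They overlapped the LINC gene in 12 of 217 pairs, lay within 10 kb in 51, at 10 to 100 kb in 91 and beyond 100 kb in 63. The 2 genes were on the same strand in 114 pairs, head to head in 51, tail to tail in 34 and overlapping on opposite strands in 9, and the strand of 9 pairs could not be matched. The LINC gene and its neighbour changed with the same sign in 103 pairs (47.5%), with a Pearson correlation of the log2 fold changes of 0.11 and a Spearman correlation of 0.06 over the pairs. Pairs share libraries, and 207 different neighbours served the 217 pairs. The same share was 52.6% for other lncRNA genes and 52.5% for protein-coding genes with their own nearest protein-coding gene. Of the neighbours, 59 (27.2%) were called, against 26.4% of all protein-coding genes under the rule.

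Both genes were called in 8 pairs, of which 6 moved the same way. A called neighbour was thus found for 20.5% of the called LINC genes, against 35.8% for called genes among the other lncRNAs and 26.3% among protein-coding genes. The 8 pairs became 3, 2 and 4 without control-siRNA replicates 1, 2 and 3, 3 and 6 without TAZ-siRNA replicates 1 and 2 and 17 without TAZ-siRNA replicate 3. The pairs that were lower were LINC02310 (-1.86) with FRMD6 (-0.62), LINC00680 (-0.50) with the DNA primase subunit gene PRIM2 (-0.27) and LINC01881 (-0.32) with D2HGDH (-0.37), which encodes a dehydrogenase of hydroxyglutarate. The pairs that were higher were LINC00673 (0.75) with SLC39A11 (0.36), LINC00989 (0.41) with the anthrax toxin receptor gene ANTXR2 (0.33) and LINC02328 (0.77) with FLRT2 (0.29), a gene of cell adhesion. LINC00989 overlaps the lncRNA LOC107986294 on the same strand (1.13, adjusted p = 0.00741), and LINC01881 overlaps the pseudogene SEPTIN14P2 on the same strand (-0.55, adjusted p = 0.0211), so that the reads of these overlapping genes are uncertain. LINC02323 (-0.89) and ANKRD9 (0.80) moved in opposite directions, as did LINC00645 (0.65) and STXBP6 (-0.36), which lie 2562 kb apart. None of the 8 pairs was closer than 35.5 kb. Among the 63 pairs that overlapped or lay within 10 kb, 10 LINC genes and 11 neighbours were called by edgeR, and both were called in 0 pairs (4 without TAZ-siRNA replicate 3). For other lncRNA genes both were called in 25 of 610 overlapping pairs and in 10 of 352 within 10 kb. For protein-coding genes the counts were 167 of 2738 and 290 of 5169. With so few called LINC genes, few joint calls could arise, and the difference was not tested. At an unadjusted p under 0.05 both passed in 8 of these pairs, and DESeq2 called both in 2, LINC00476 with ERCC6L2 (0.85 and 0.19) and LINC00942 with ERC1 (-0.56 and 0.22). The close pairs with a called LINC gene included LINC00205 and POFUT2 (138 bases apart, head to head, neighbour 0.12), LINC01184 and SLC12A2 (591 bases, head to head, 0.10), LINC01389 and FOXD2 (727 bases, head to head, 0.38) and LINC00261 and FOXA2 (2356 bases, same strand, 0.10). None of these neighbours passed the test (adjusted p from 0.180 to 0.324).

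**Figure D5:**
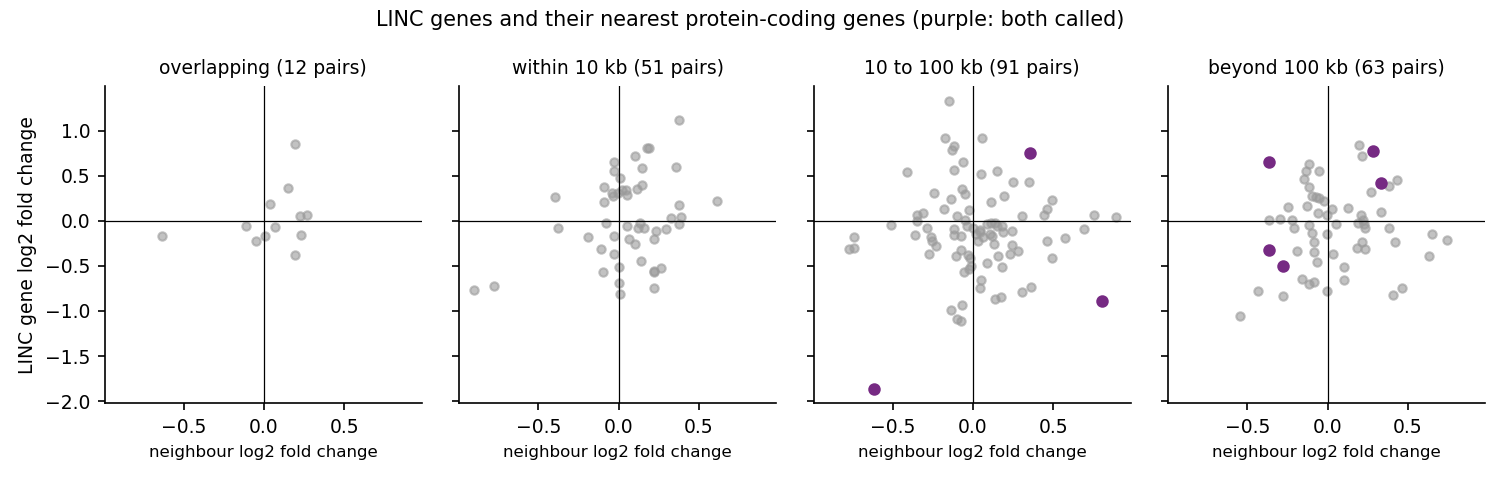
Log2 fold change of the nearest protein-coding gene (horizontal) against that of the LINC gene (vertical) for the 217 pairs, in panels by distance (12, 51, 91 and 63 pairs), with the 8 pairs in which both were called in purple. No purple point lies in the overlapping panel or the panel within 10 kb.

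The surroundings of 3 loci, those of the largest fall, the largest rise and the most abundant member, were examined over 500 kb to either side, for all genes with 10 or more counts in every library. Of all genes tested, 10.2% were called lower and 22.1% in either direction. Beside LINC02310, which was chosen for its fall, 3 of the 8 genes around it were called, each lower. These were FRMD6 at 92.0 kb (-0.62, adjusted p = 0.000112), which encodes a FERM-domain protein placed upstream in the Hippo pathway, FRMD6-AS1 within its locus (-0.66, adjusted p = 0.0256), whose reads cannot be told from those of FRMD6 without the strand, and PYGL at 448 kb (-0.33, adjusted p = 0.00222), the liver glycogen phosphorylase. The 3 called genes of 8 became 2 without control-siRNA replicate 2 or 3 or TAZ-siRNA replicate 1 or 2. FRMD6 decreased from 349 ± 19.4 to 227 ± 3.46 CPM. LINC02310 and FRMD6 are transcribed away from each other. Beside LINC00673, 2 of the 4 genes around it were called, each higher, and 1 of 4 without control-siRNA replicate 2. Of all genes tested, 11.9% were called higher. The 2 called genes were SLC39A11 at 53.1 kb (0.36, adjusted p = 0.00857), a zinc transporter, and SOX9 at 277 kb (0.34, adjusted p = 0.00324), a transcription factor. The 2 genes that did not pass, LINC00511 (0.60, adjusted p = 0.205) and SOX9-AS1 (0.37, adjusted p = 0.268), had few reads.

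Around LINC00565 the picture was mixed. Of the 14 genes beside LINC00565, 4 were called, each lower, against 10.2% of all genes tested, while without TAZ-siRNA replicate 3 a further 2 were called higher. Without any 1 of the other libraries, 3 of the 14 were called, each lower. GAS6 at 62.4 kb, which encodes the ligand of the TAM receptor kinases, decreased from 19.3 ± 0.895 to 12.2 ± 0.22 CPM (log2 fold change -0.67, SE 0.07, adjusted p = 0.000188). TMEM255B (-0.33), CDC16 (-0.22) and ADPRHL1 (-0.43) were also lower. The closest gene, the lncRNA LOC105377806 at 7.60 kb, did not pass (0.45, adjusted p = 0.134). LINC00565 thus moved against GAS6, and C13orf46, its nearest protein-coding gene, was at -0.15 (adjusted p = 0.754).

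Of 14 LINC genes studied in cancer, 9 were members, and 1 of them, LINC01116, was called lower while 8 did not pass. This is about the share of all genes tested that were called lower (10.2%). The values of those 8 were small except for LINC00511 (0.60, adjusted p = 0.205) and LINC01605 (0.32, adjusted p = 0.129), and the median over the 9 was -0.06. LINC00460, a gene linked to invasion, had 217 to 297 counts after control-siRNA, against 202 to 276 after TAZ-siRNA (-0.14, SE 0.11, adjusted p = 0.392). LINC00941 (0.06), LINC00888 (-0.06), LINC00963 (0.09), LINC00662 (-0.15) and LINC01503 (-0.22) had adjusted p from 0.490 to 0.667. LINC00473, LINC00520 and LINC01133 were under the count rule, and LINC01638 is listed as a protein-coding gene, which the rule leaves out. The paper lists LINC01638 among its genes with decreased expression at 2-fold or more, and that fall is not part of the counts here. LINC00665 is listed at 0 in every library, which can be a failed estimate. A transcript of the member LINC01535 shares 2999 bases with it at 98.3% identity. Among 13 long non-coding RNAs with established names and other symbols, 12 were tested and 6 were called, each lower, against 10.2% of all genes called lower. These were NEAT1 (-0.37), CYTOR (-0.41), GAS5 (-0.42), DANCR (-0.41), PVT1 (-0.56) and SNHG1 (-0.54). NORAD (0.19), TUG1 (0.13), OIP5-AS1 (0.11), MALAT1 (0.01), KCNQ1OT1 (-0.08) and H19 (0.39) did not pass. Most of the list has high counts. Of the 179 other lncRNA genes with 300 or more counts, 35 were called lower, and 25.7% were called in either direction.

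Of the members, 138 had 1 transcript in the table and 79 had several, with 19 for LINC01184. In 41 of the 79, the same transcript had the highest FPKM in all 6 libraries. LINC01234 was singled out after its values were seen. Its transcript of 2088 bases had 4.62, 5.24 and 7.36 FPKM with control-siRNA and 0.420, 0.492 and 1.29 FPKM with TAZ-siRNA. Its transcript of 2222 bases had 6.79, 6.52 and 5.96 FPKM with control-siRNA and 9.45, 8.89 and 9.96 FPKM with TAZ-siRNA. The longer form thus made up 53.2% of the gene's FPKM with control-siRNA and 93.0% with TAZ-siRNA, whereas the count of the whole gene had a log2 fold change of -0.23. These transcripts share most of their sequence and their values are estimates of coverage, and no test was made.

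At the threshold of the rule, the members with the lowest counts included LINC01629 (10 to 20 counts), LINC01473 (10 to 26) and LINC00513 (10 to 35). Just outside it, with 9 counts in their lowest library, were LINC02012 (9 to 56), LINC00294 (9 to 56) and LINC00672 (9 to 27). In all, 76 LINC genes, the last 3 included, were tested but under the rule. Among the 76, 3 were called lower (LINC02806, LINC02331 and LINC01409, each with a log2 fold change of -1.59) and 1 higher (LINC02012, 1.17). These were 3.95% called lower, against 10.2% of all genes tested, and 1.32% called higher, against 11.9%. A minimum in every library leaves out genes that fall below it in 1 group, as LINC02331 did with 46, 22 and 25 counts against 14, 4 and 13.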

How the data were processed

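RNA from 3 control-siRNA and 3 TAZ-siRNA preparations of MDA-MB-231 cells was sequenced as poly(A)-selected, stranded libraries. Reads were trimmed, aligned (HISAT2, GRCh38) and assigned to RefSeq transcripts (StringTie) by the authors. The deposited estimated counts are whole numbers that the authors derived from read coverage. FPKM, as deposited, had been divided by the authors by library size and by transcript length. TPM, also deposited, was not used.

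Counts were fitted with edgeR 4.0.16 in R 4.3.3 (quasi-likelihood test, robust, after filterByExpr with minimum count 10 and TMM scaling). The Benjamini-Hochberg method was applied to all 16966 genes, with calls at an adjusted p under 0.05. CPM values used the TMM library sizes, and ± is the SD over 3 libraries. The replicate numbers are those of the columns. The SE and adjusted p beside each result came from the fitted spread between libraries, at a depth of 48307548 to 71749634 counts per library. Loci came from the deposited transcript table. Strands came from RefSeq and GENCODE 44 for 212 of 217 members. Near-identical stretches were searched with BLAST+ 2.17.0 (98% identity over 300 bases) for the 194 members found in GENCODE by symbol.

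The members and lists were chosen with earlier results of these data known. The genes named are the 10 largest called falls and rises, the 6 most abundant members, the cancer and reference lists, the members nearest to the count threshold, and neighbours. Genes with other reasons, such as those called in every fit without a library or around the 3 loci, were named after their values were seen. Alternatives were DESeq2 1.42.0, upper-quartile factors, no filter, limma 3.58.1 on the log2 of FPKM after adding 1 or 0.1, a replicate block, each library left out, other count rules and other thresholds.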

Additional observations from a re-analysis of the deposited data

How the results depend on the processing

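The main counts were 20 LINC genes called lower and 19 higher. DESeq2 gave 21 and 20, upper-quartile factors 20 and 19, no filter 19 and 18, limma on log2(FPKM + 1) 23 and 17 and on log2(FPKM + 0.1) 22 and 16. At least 5 counts gave 21 and 20, at least 20 counts 16 and 18 and a mean of at least 10 counts 22 and 20. Omitting the 31 members with a near-identical stretch, chosen after seeing the data, gave 19 and 16. An adjusted p under 0.01 gave 6 and 6, and one under 0.1 gave 37 and 26. Leaving out each library in turn gave 6 (without TAZ-siRNA replicate 1) to 25 (without TAZ-siRNA replicate 3) lower and 9 to 25 higher. Without control-siRNA replicates 1, 2 and 3 the counts were 10 and 11, 9 and 9, and 8 and 10, and without TAZ-siRNA replicates 1 and 2 they were 6 and 9, and 13 and 13. Fits with fewer libraries have fewer residual degrees of freedom. In the same fits 12.9 to 45.2% of the neighbours were called, against 27.2% with all libraries. The share of members below 0 was 54.8 to 60.5% in all alternatives, and the median stayed below 0, at -0.0272 for limma on log2(FPKM + 1), where the pseudocount compresses low values. The share of pairs with the same sign was 46.1 to 51.2% without a library and 53.5% with the nearest gene of any type. Among named genes, LINC01503 (-0.405 to 0.0293 without a library, positive without control-siRNA replicate 3) and LINC00888 (-0.109 to 0.0316, positive without control-siRNA replicate 2) changed sign, and neither was called. The deviations of same-numbered libraries correlated at -0.017, 0.009 and 0.07, and those of other pairs at -0.095 to 0.1. With 3 libraries per group, these values cannot show whether the replicate numbers pair the libraries. The replicate block gave 25 lower and 20 higher. With the replicate block, LINC02041 was no longer called (adjusted p = 0.0646), and LINC01234 and LINC00339 were (adjusted p = 0.00967 and 0.0242). On FPKM, limma did not call LINC02798 (adjusted p = 0.065 and 0.0658 with the pseudocounts 1 and 0.1) or, with 0.1, LINC02709 (adjusted p = 0.0535). Low counts limit the calls for members under 30 mean counts.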
